A study of Mus musculus with 22 samples.

Results

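The genes described here are 8 that are commonly used to recognise pancreatic duct cells: the keratins Krt7, Krt8, Krt18 and Krt19, the chloride channel Cftr, the secreted phosphoprotein Spp1, the membrane mucin Muc1 and the transcription factor Onecut1. They were taken by symbol from a table of 56860 genes, and no member's symbol occurred more than once. Of the 8, 6 reached a level of 1 TPM (transcripts as a share of 1000000) in at least 5 samples and entered the test across 16749 genes. Cftr and Onecut1 stayed under 1 TPM in every sample.

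Poly(A) RNA was sequenced from islets of 22 male mice aged 5.5 weeks, with 1 mouse per library. MAFA activates insulin genes in mature beta cells, and the animals were wild type for MafA (WT) or heterozygous for its S64F change (Het). There were 5 mice in C57 WT, 6 in C57 Het, 5 in Mixed WT and 6 in Mixed Het, where C57 and Mixed are the labels' names for the backgrounds. The labels do not say which strains make up Mixed, and library numbers run through the groups in turn, so library order and group cannot be told apart.

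Keratins are the intermediate filament proteins of epithelial cells, and a filament forms only from a type II chain (such as Krt7 or Krt8) joined to a type I chain (such as Krt18 or Krt19). Krt8 and Krt18 are the general keratins of simple epithelia and are also made by acinar and islet endocrine cells, whereas Krt19 is used as a duct marker. Duct cells carry pancreatic juice and add bicarbonate to it, a step that needs the CFTR channel, and islet preparations carry a variable number of them. In bulk islet RNA, fewer cells of a type and less RNA per cell cannot be told apart.

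Mafa itself was at 441 ± 87.6 TPM (SD, n = 5) in C57 WT, 117 ± 23.2 (n = 6) in C57 Het, 598 ± 143 (n = 5) in Mixed WT and 152 ± 37.1 (n = 6) in Mixed Het. The islet endocrine genes Ins1, Ins2, Iapp, Gcg, Sst, Ppy and Chga summed to between 428798 and 525360 TPM of the 1000000 in each library. C57 WT replicate 5 had the highest endothelial marker sum of its group, 856 TPM, where the others lay between 384 and 619. The depth of each library is unknown, because TPM keeps no counts.

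In RefSeq's GRCm38.p6 order, Krt8 and Krt18 are neighbouring protein-coding genes on chromosome 15 with 2 lncRNA genes between them. The 250 bases before the annotated starts of Krt8 and Krt18, neighbours whose levels correlated across mice, and of Spp1, the member with the largest change, are printed below from RefSeq (GRCm38.p6), 5′ to 3′ on the strand of the gene. Krt8 lies at chr15:102004343-102004592 on the minus strand, Krt18 at chr15:102027966-102028215 on the plus strand, and Spp1 at chr5:104434861-104435110 on the plus strand. Capitals mark the MAF core TGCTGA, searched on both strands.
Krt8: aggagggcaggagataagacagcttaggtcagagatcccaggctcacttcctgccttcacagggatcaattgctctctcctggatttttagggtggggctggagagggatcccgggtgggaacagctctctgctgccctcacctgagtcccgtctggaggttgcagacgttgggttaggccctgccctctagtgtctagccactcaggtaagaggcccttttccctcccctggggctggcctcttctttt
Krt18: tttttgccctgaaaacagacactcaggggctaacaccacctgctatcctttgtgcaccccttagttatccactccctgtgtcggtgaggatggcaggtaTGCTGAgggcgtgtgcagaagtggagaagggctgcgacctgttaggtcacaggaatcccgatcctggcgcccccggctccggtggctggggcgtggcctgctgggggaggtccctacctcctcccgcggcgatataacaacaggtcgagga
Spp1: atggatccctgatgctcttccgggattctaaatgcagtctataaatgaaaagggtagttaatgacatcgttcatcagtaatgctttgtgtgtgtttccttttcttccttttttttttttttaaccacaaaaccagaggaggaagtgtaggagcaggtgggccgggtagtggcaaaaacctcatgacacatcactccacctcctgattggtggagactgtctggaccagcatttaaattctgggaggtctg

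Of the 8 members, 7 had such a window, and Spp1 had 2 of them, which gave 8 windows. The MAF core occurred in 1 of these, that of Krt18, beginning 151 bases before the start, and in 16.1% of all 32851 windows. The AP-1 motif TGANTCA (6.75% of all windows), which can overlap the MAF core, the Onecut core ATCGAT (0.728%) and the SOX core ACAATG (10.7%) occurred in 0 of the 8. A match is a run of letters and not a binding site, and 0 matches say only that these letters are not in these windows.

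The members fell into very different ranges of abundance. Averaged over the 22 libraries, Krt8 was at 489 TPM, Krt18 at 337, Spp1 at 109.7 and Krt7 at 91.0 TPM. These were ranks 96, 153, 700 and 883 among the 16749 genes tested. Krt19 was at 4.41 TPM and Muc1 at 3.63, and Cftr and Onecut1 were at 0.266 and 0.217 TPM. In the same libraries the mean of Krt19, the type I keratin of ducts, was therefore far below that of Krt18, the type I keratin of simple epithelia, with a median Krt19 to Krt18 ratio of 0.00546 in C57 WT and 0.00723 in Mixed WT.

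**Figure D1:**
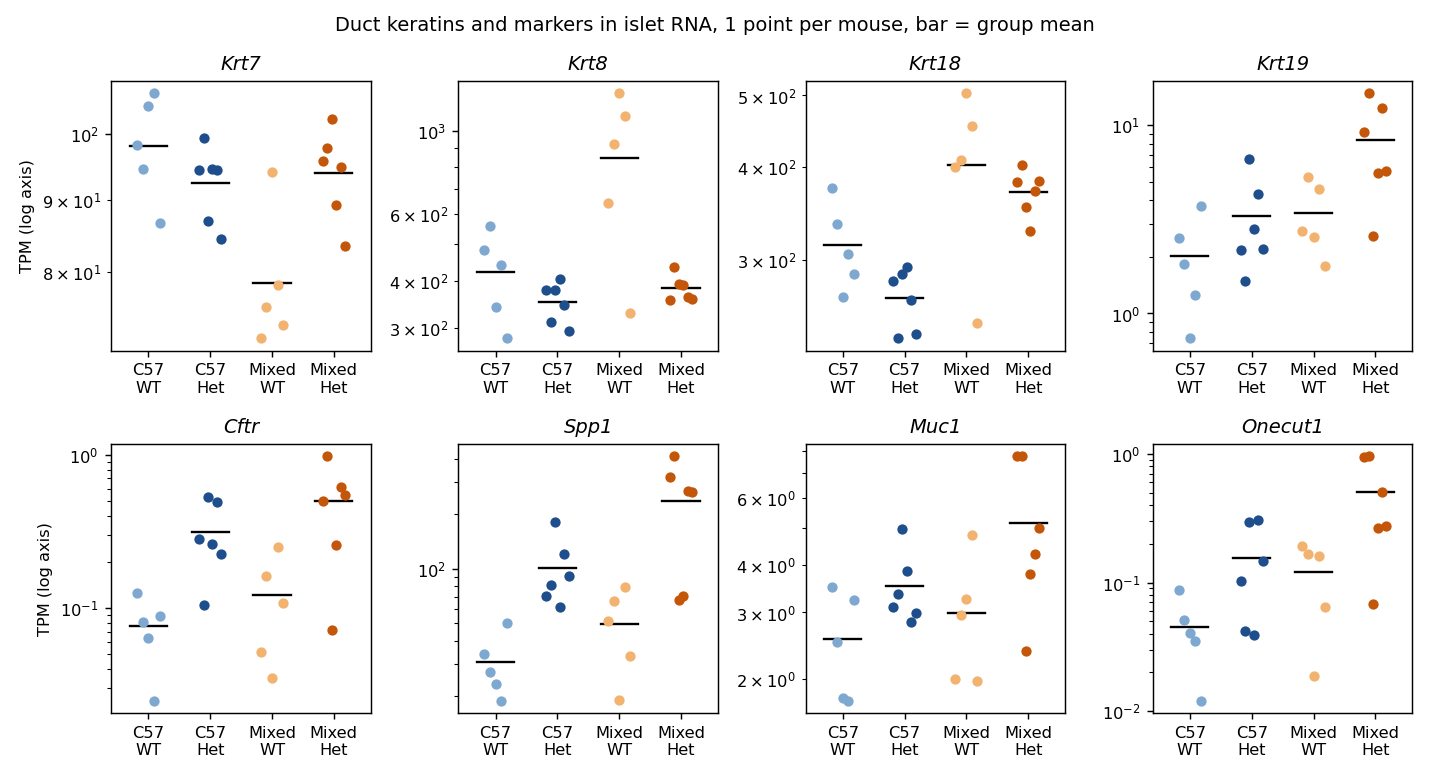
TPM (log axis) of each of the 8 genes in each mouse, in the 4 groups, with 1 point per mouse and a bar at the group mean. Krt8 spreads from 329 to 1258 TPM in Mixed WT and from 357 to 435 TPM in Mixed Het, while Spp1 in C57 Het, from 61.9 TPM upward, lies wholly above C57 WT.

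Krt8 is the type II keratin of simple epithelia. The C57 WT replicates 1 to 5 held 484, 560, 341, 441 and 281 TPM of it, and across C57 Het the lowest, median and highest values were 294, 362 and 403 TPM. In Mixed WT it was at 641, 921, 1258, 1097 and 329 TPM, and in Mixed Het the corresponding values were 357, 376 and 435 TPM. Mixed WT mice thus held the 4 highest libraries of the series, and its replicate 5 lay below all 6 Mixed Het libraries.

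Krt8 fell in Mixed Het, with a difference on the log2(TPM + 1) scale of -1.01 (SE 0.24, limma adjusted p = 0.00169), and the group means were 849 ± 370 TPM (SD, n = 5) in WT and 382 ± 30.2 (n = 6) in Het. All 6 Het libraries lay below the WT mean. In C57 the difference was -0.23 (SE 0.24, adjusted p = 0.472). The interaction (the Mixed minus the C57 genotype difference) was -0.78 (SE 0.34, adjusted p = 0.144). Without Mixed WT replicate 5 the Mixed difference was -1.31 and the interaction -1.09 (limma adjusted p = 0.00784), so the interaction was called only when that library was left out.

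Between the backgrounds, Krt8 was higher in Mixed WT than in C57 WT by 0.91 (SE 0.25, adjusted p = 0.0199), with 4 of 5 Mixed libraries above every C57 library. That call was lost when any of C57 WT replicates 3 and 5 or Mixed WT replicates 2, 3 and 4 was left out (differences 0.73 to 0.84), and in a fit on WT mice alone (adjusted p = 0.152). In Het mice the backgrounds differed by 0.13 (SE 0.23, adjusted p = 0.746).

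Krt18, the type I partner of Krt8, moved less. It was at 375, 335, 267, 306 and 287 TPM in C57 WT and at 400.5, 409.7, 503, 455 and 247 TPM in Mixed WT. In C57 Het the lowest, median and highest values were 235, 273 and 294 TPM, and in Mixed Het they were 328, 377 and 403 TPM. The Het and WT values overlapped in both backgrounds, with a difference of -0.23 (limma adjusted p = 0.168, SE 0.13) for C57 and of -0.09 (adjusted p = 0.625, SE 0.13) for Mixed. Without Mixed WT replicate 5 the Mixed difference was -0.25 and passed (limma adjusted p = 0.036), and without Mixed WT replicate 3 it was 0.0048. Quantile normalization and a total without the most abundant genes each gave a call in C57, at -0.34 (adjusted p = 0.0341 and 0.0314).

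In Het mice, Krt18 was higher on the Mixed background, at 370.4 ± 26.2 TPM against 267 ± 25.1 (SD, n = 6 each). The difference was 0.47 (SE 0.12, limma adjusted p = 0.00925), and all 6 Mixed Het libraries lay above every C57 Het library. Over all genes, 9.85% separated the 2 Het groups without overlap. In WT mice the difference was 0.33 (SE 0.14, adjusted p = 0.123), and 0.50 (adjusted p = 0.00175) without Mixed WT replicate 5.

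The balance of the partners is a ratio within a library and does not depend on scaling. Krt8 stood to Krt18 at a median of 1.29 in C57 WT, 1.32 in C57 Het, 2.25 in Mixed WT and 1.03 in Mixed Het. The log2 ratio averaged 0.97 ± 0.40 (SD, n = 5) over Mixed WT and 0.04 ± 0.14 (n = 6) over Mixed Het, which differ by -0.93 (two-sided exact permutation p = 0.00216, adjusted over 8 ratio tests 0.00866). All 6 Het libraries lay below every WT library, and the p is the smallest that 462 splits allow. It averaged 0.39 ± 0.28 over C57 WT and 0.39 ± 0.05 over C57 Het, which differ by 0.0030 (exact permutation p = 0.981). Whether the ratio's genotype difference differs between backgrounds was not tested.

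**Figure D2:**
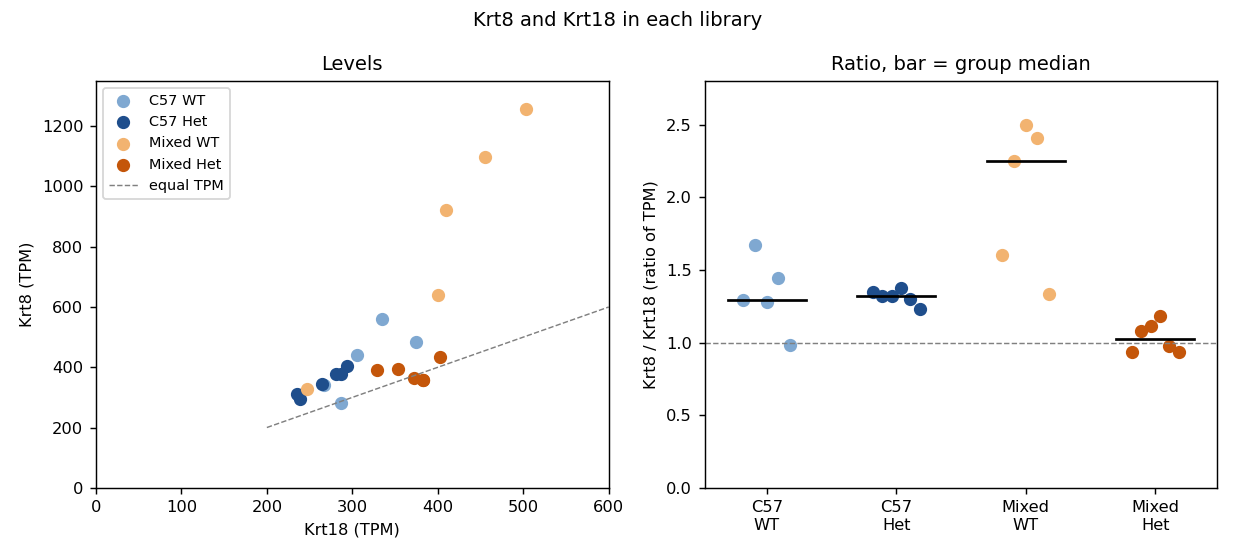
Left, Krt8 against Krt18 in TPM, with 1 point per library and a dashed line at equal TPM; right, the ratio of Krt8 to Krt18 in each library by group, with a bar at the group median. The Mixed WT points climb to 1258 TPM of Krt8 at 503 TPM of Krt18, and the Mixed Het median ratio is 1.03 against 2.25 in Mixed WT.

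Krt7, the other type II keratin, varied least of the 8. Its values were 98.3, 94.5, 105, 107 and 86.6 TPM in C57 WT and 71.9, 75.6, 94.0, 78.4 and 73.5 TPM in Mixed WT. The lowest, median and highest were 84.5, 94.5 and 99.4 TPM in C57 Het and 83.5, 95.3 and 102 TPM in Mixed Het. Mixed WT stood below the other 3 groups, apart from its replicate 3.

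In Mixed mice Krt7 rose by 0.26 (SE 0.07, limma adjusted p = 0.00759), from 78.7 ± 8.91 TPM (n = 5) to 93.9 ± 6.70 (n = 6), with 4 of 6 Het libraries above every WT library. The median change of all genes in that comparison was 0.10, and relative to it Krt7 differed by 0.15. The call was lost with median-of-ratios scaling (0.12, adjusted p = 0.255), with quantile normalization (0.14, adjusted p = 0.106) and with a total without the most abundant genes (0.13, adjusted p = 0.151). In C57 the difference was -0.09 (SE 0.07, adjusted p = 0.378), and it passed as a decrease with quantile normalization (-0.21, adjusted p = 0.0237) and with the total without the most abundant genes (-0.20, adjusted p = 0.0391).

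In WT mice Krt7 was lower on the Mixed background by a log2 difference of -0.32 (SE 0.08, limma adjusted p = 0.00915, and 0.079 in a fit on WT mice alone), with 4 of 5 Mixed libraries below every C57 library. In Het mice it differed by 0.02 (SE 0.07, adjusted p = 0.859). Krt7 and Krt8 therefore differed between the WT backgrounds in opposite directions. The ratio of Krt7 to Krt8 had a median of 0.0821 in Mixed WT and 0.247 in Mixed Het, a log2 difference of 1.27 (exact permutation p = 0.00216, adjusted over 8 tests 0.00866), and all 6 Het libraries lay above every WT library. In C57 the medians were 0.242 and 0.261 (log2 difference 0.14, exact p = 0.439, adjusted 0.502).

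Krt19 is the keratin most used to mark ducts. It was at 2.51, 1.83, 0.737, 1.26 and 3.74 TPM in C57 WT and at 2.76, 5.33, 2.56, 4.59 and 1.78 TPM in Mixed WT. Its lowest, median and highest values were 1.49, 2.51 and 6.65 TPM in C57 Het and 2.59, 7.46 and 14.8 TPM in Mixed Het. Mixed Het held the highest libraries, and 5 of its 6 lay above every Mixed WT library.

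Krt19 rose in Mixed Het by 0.99 (SE 0.35, limma adjusted p = 0.025), from 3.40 ± 1.49 TPM (n = 5) to 8.38 ± 4.61 (n = 6). That call was lost without Mixed WT replicate 3 or 5 or Mixed Het replicate 2 or 5 (differences 0.81 to 0.93, adjusted p up to 0.0687). It was also lost without the filter on low values (limma adjusted p = 0.0572), with the total without the most abundant genes (0.0534) and with the acinar (0.0562), macrophage (0.668) or mesothelial (0.945) score as a covariate. The mesothelial score rests on Msln alone, which fell in Het mice of both backgrounds. Here and below, a call lost with that covariate cannot be told apart from removal of the genotype difference itself. In C57 the difference was 0.49 (SE 0.35, adjusted p = 0.283), and the interaction was 0.51 (SE 0.49, adjusted p = 0.542). In Het mice Krt19 was higher on the Mixed background by 1.07 (SE 0.33, adjusted p = 0.0251). This was lost without C57 Het replicate 1, 2 or 6 or Mixed Het replicate 1, 2 or 5, where the differences were 0.89 to 1.02. In WT mice the backgrounds differed by 0.57 (adjusted p = 0.34).

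Spp1 encodes osteopontin, a secreted phosphoprotein made by duct cells and also by some macrophages. The C57 WT libraries held 34.2, 27.1, 23.2, 18.7 and 50.6 TPM of it, and across C57 Het the lowest, median and highest values were 61.9, 86.5 and 181 TPM. In Mixed WT it was at 51.2, 66.5, 18.9, 79.8 and 33.2 TPM. In Mixed Het replicates 1 to 6 were at 318, 415, 66.9, 71.1, 266 and 265 TPM, so replicates 3 and 4 lay within the range of Mixed WT and the other 4 above it.

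Spp1 rose in both backgrounds and showed the largest difference of the 6 tested members. In C57 the difference was 1.67 (SE 0.45, limma adjusted p = 0.00596), from 30.8 ± 12.5 TPM (n = 5) to 101.1 ± 44.1 (n = 6), and all 6 Het libraries lay above every WT library. Over all genes, 21% had non-overlapping groups in that comparison. In Mixed mice it was 2.06 (SE 0.45, adjusted p = 0.000867), from 49.9 ± 24.5 to 234 ± 139 TPM, with 6 of 6 Het libraries above the WT mean and 4 of 6 above every WT library. The interaction was 0.39 (SE 0.63, adjusted p = 0.731). Both calls stood when any 1 library was left out, with differences of 1.48 to 1.86 in C57 and 1.76 to 2.36 in Mixed. Both were lost with a score of mesothelial markers, which rests on Msln alone, as a covariate (0.45 and 0.44). Msln ran from 130 to 275 TPM in C57 WT and from 13.0 to 42.6 in C57 Het. In Mixed it ran from 72.1 to 147 TPM in WT and from 3.61 to 23.4 in Het. That covariate carries much of the genotype difference, so these 2 losses say little about Spp1.

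As a sum, markers of macrophages, another source of Spp1, moved differently by background. The summed level of 11 macrophage markers ran from 211 to 270.5 TPM in C57 WT, from 122 to 185 in C57 Het, from 100.3 to 139 in Mixed WT and from 159 to 341 in Mixed Het. In C57, where Spp1 rose, 2 of the 6 tested macrophage markers fell and 0 rose, and in Mixed all 6 rose. Over all genes 26.4% rose and 11.6% fell in C57, and 30.7% rose and 13.5% fell in Mixed. C1qa, the most abundant of them, averaged 178 TPM in the C57 wild types and 103 in their heterozygotes. Mrc1, Ptprc, Itgam, Gpnmb and Trem2 were below the filter and were not tested. Of these, Gpnmb and Trem2 mark Spp1-rich macrophages. Gpnmb averaged 0.0116 TPM in the C57 wild types and 0.0159 in their heterozygotes, against 0.00971 and 0.114 in Mixed. For Trem2 these means were 0.204 and 0.175 in C57, against 0.166 and 0.425 in Mixed. Mrc1 was higher in heterozygotes of both backgrounds, with means of 0.238 and 0.592 in C57, against 0.104 and 0.920 in Mixed. Its highest C57 wild type was at 0.349 TPM and its lowest C57 heterozygote at 0.484. Ptprc averaged 0.419 and 0.434 in C57, against 0.515 and 0.832 in Mixed. Itgam was lower in heterozygotes, at 0.0394 and 0.0123 in C57, against 0.0904 and 0.0776 in Mixed. With the macrophage score as a covariate the C57 difference of Spp1 still passed, and the Mixed difference was 1.80 (adjusted p = 0.0958).

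Muc1 encodes a mucin of the apical membrane of ducts and acini. It was at 3.51, 2.50, 1.78, 1.75 and 3.23 TPM in C57 WT and at 1.998, 2.95, 3.26, 4.81 and 1.97 TPM in Mixed WT. The lowest, median and highest values were 2.83, 3.23 and 4.98 TPM in C57 Het and 2.37, 4.65 and 7.77 TPM in Mixed Het. Het and WT values overlapped in both backgrounds. On the C57 background Muc1 differed by 0.36 (limma adjusted p = 0.213, SE 0.22), and on the Mixed background it rose by 0.59 (adjusted p = 0.0363, SE 0.22). The Mixed call was lost without any of Mixed WT replicates 1, 2 and 5 or Mixed Het replicates 1, 2 and 6 (0.47 to 0.60) and under each of the 3 other scalings. It was also lost without the filter on low values (limma adjusted p = 0.0753) and in the fit on Mixed mice alone (0.0794). The macrophage (limma adjusted p = 0.273) and mesothelial (0.702) covariates lost it too. The exact permutation p for Muc1 in Mixed was 0.0736 on log2(TPM + 1).

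Cftr, the chloride channel of the duct's apical membrane, was low in every library. It was at 0.125, 0.0810, 0.0640, 0.0246 and 0.0887 TPM in C57 WT and at 0.0511, 0.161, 0.0350, 0.251 and 0.108 TPM in Mixed WT. In C57 Het the lowest, median and highest values were 0.104, 0.271 and 0.530 TPM, and in Mixed Het they were 0.0717, 0.522 and 0.982 TPM. In each background 5 of 6 Het libraries lay above every WT library. The ratio of the Het to the WT mean was 4.11 in C57 (two-sided exact permutation p = 0.00649 on log2(TPM + 1)) and 4.09 in Mixed (exact p = 0.0281). In the limma fit without the filter on low values the differences were 0.28 (adjusted p = 0.108) and 0.39 (adjusted p = 0.0168), on a scale that understates the change of so low a gene. The Mixed call was lost in the fit on Mixed mice alone (limma adjusted p = 0.0826) and with the macrophage (0.629) or mesothelial (0.979) covariate. The C57 difference passed in the fit on C57 mice alone (0.044) and with a pseudocount of 0.1 (0.0477).

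Onecut1 encodes a transcription factor of the embryonic pancreas that stays on in ducts. It was at 0.0870, 0.0510, 0.0403, 0.0348 and 0.0120 TPM in C57 WT and at 0.193, 0.167, 0.0189, 0.162 and 0.0643 TPM in Mixed WT. The lowest, median and highest values were 0.0390, 0.126 and 0.309 TPM in C57 Het and 0.0677, 0.393 and 0.963 TPM in Mixed Het. In Mixed 5 of 6 Het libraries lay above every WT library, with a ratio of means of 4.16 (exact permutation p = 0.0498), and the unfiltered limma difference was 0.39 (adjusted p = 0.0259), lost without Mixed WT replicate 3 or 5 or Mixed Het replicate 1 or 2. It was also lost in the fit on Mixed mice alone (limma adjusted p = 0.128) and with the acinar (0.106), macrophage (0.452) or mesothelial (0.805) covariate. In C57 the ratio of means was 3.46 (exact p = 0.0714) and the unfiltered difference 0.14 (adjusted p = 0.526).

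**Figure D3:**
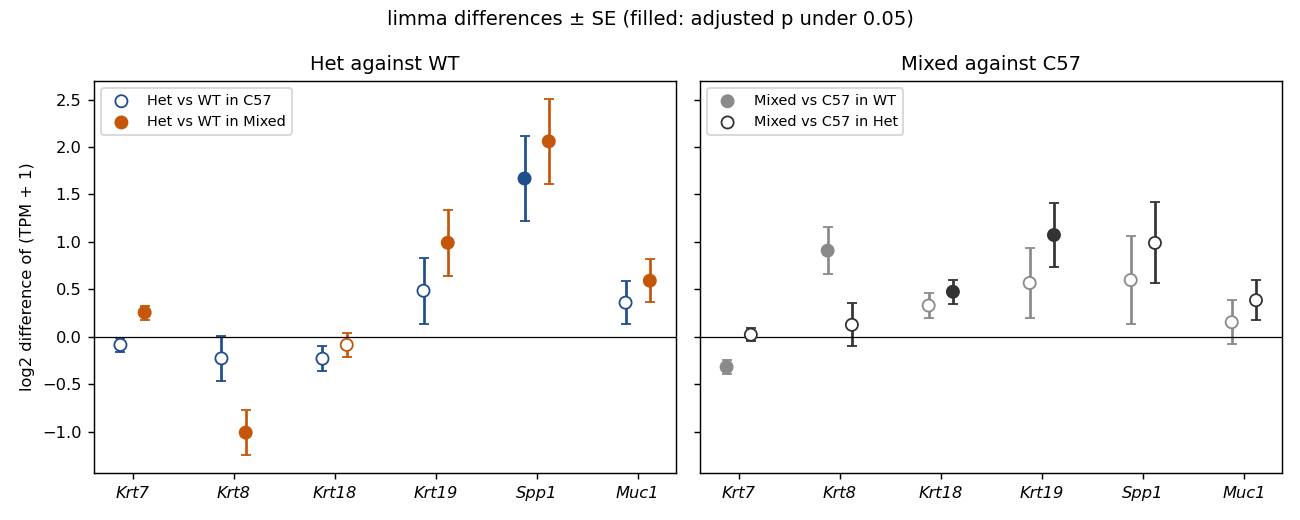
log2 difference of (TPM + 1) with its SE from limma for the 6 members past the filter on low values; left, Het against WT in C57 and in Mixed, right, Mixed against C57 in WT and in Het mice, with filled points at an adjusted p under 0.05. Spp1 is the filled point furthest from 0 on the left, at 1.67 and 2.06, and Krt8 lies at -1.01 in Mixed.

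Counted together, the test called 1 of 6 members in C57 (Spp1, higher), where 38% of all genes were called, 26.4% as higher and 11.6% as lower. In Mixed it called 5 of 6, with 4 higher (Krt7, Krt19, Spp1, Muc1) and 1 lower (Krt8), where 44.1% of all genes were called, 30.7% as higher and 13.5% as lower. The interaction called 1 of 6, Krt7, against 7.36% of all genes (4.62% higher, 2.74% lower). Between backgrounds it called 2 of 6 in WT mice (Krt8 higher and Krt7 lower in Mixed, against 11.3% of all genes, 6.3% higher and 4.99% lower) and 2 of 6 in Het mice (Krt18 and Krt19 higher, against 20.5%, 13.3% higher and 7.14% lower). The median difference of the 6 members was 0.14 in C57 and 0.42 in Mixed, beside 0.08 and 0.10 over all genes. Median-of-ratios scaling moved the Mixed median of all genes to -0.01 and the split of calls from 5137 higher and 2256 lower to 3582 and 3746, and the C57 split from 4422 and 1939 to 3520 and 3062. The comparisons share groups of mice, so their values are given side by side and not correlated.

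Within groups, the members varied between mice to very different degrees. The SD was at most 11.3% of the mean for Krt7 and at most 24.0% for Krt18. For Krt19 it lay between 43.8% and 58.3%, for Spp1 between 40.5% and 59.4%, for Cftr between 47.8% and 72.6%, and for Onecut1 between 61.0% and 76.9%. Krt8 was uneven in WT mice, at 26.4% in C57 and 43.5% in Mixed, and even in Het mice, at 12.2% and 7.90%.

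Apart from Krt8, the uneven genes tended to be uneven in the same libraries. After each group's mean was removed from log2(TPM + 1), Krt19 correlated over the 22 mice with Cftr at r = 0.83 (rho = 0.79), with Spp1 at 0.80 (0.82), with Muc1 at 0.73 (0.69) and with Onecut1 at 0.72 (0.72). Permutation within groups gave adjusted p-values, over the 28 pairs of members, of 0.000373 for Cftr and for Spp1, 0.0037 for Muc1 and 0.00378 for Onecut1. Without the 2 libraries farthest from the median, the values of r were 0.75, 0.72, 0.62 and 0.61. Spp1 with Cftr gave r = 0.82 (rho = 0.84, permutation adjusted p = 0.000373), and 0.75 without its own 2 farthest libraries, Mixed Het replicates 3 and 2. The 10 pairs among Krt19, Cftr, Spp1, Muc1 and Onecut1, a set chosen after the values were seen, had r between 0.63 and 0.83. The lowest, Muc1 with Onecut1, had a rho of 0.41 (permutation adjusted p = 0.174). Without the 2 farthest libraries, r fell to 0.43 for Cftr with Muc1 and to 0.39 for Muc1 with Onecut1. Within C57 WT alone (5 mice), r was -0.09 for Krt19 and -0.17 for Spp1 with Onecut1. For Muc1 with Onecut1, r was 0.30 in C57 WT, 0.14 in C57 Het, 0.05 in Mixed WT and 0.94 in Mixed Het. For Spp1 with Muc1 these values were 0.87, 0.47, 0.32 and 0.87.

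Krt7, Krt8 and Krt18 did not share that pattern to the same extent. Krt8 and Krt18 correlated with each other at r = 0.89 (rho = 0.83, permutation adjusted p = 0.00042; 0.72 without Mixed WT replicates 5 and 3). Within the groups r was 0.76 in C57 WT, 0.98 in C57 Het, 0.97 in Mixed WT and 0.09 in Mixed Het. Across the 15 pairs that join one of these 3 keratins to one of the other 5 members, r lay between -0.44 and 0.54 with a median of 0.12. The highest was Krt18 with Muc1, at 0.54 (rho = 0.71, permutation adjusted p = 0.0216; 0.58 without the same 2 libraries). Krt18 with Krt19 gave r = 0.43 (permutation adjusted p = 0.0513) and rho = 0.55 (adjusted p = 0.0245). Krt19 and Krt8 correlated at 0.23 (rho = 0.31, permutation adjusted p = 0.365 for r).

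**Figure D4:**
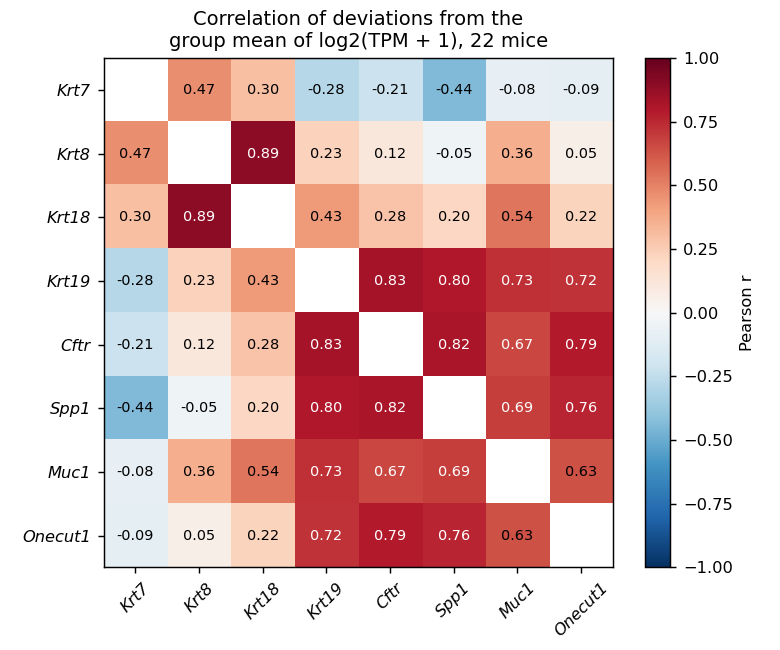
Pearson correlation between the 8 members (both axes) over 22 mice, of deviations from the group mean of log2(TPM + 1), with red for positive and blue for negative values. Krt19, Cftr, Spp1, Muc1 and Onecut1 form a block with r from 0.63 to 0.83, and Krt8 with Krt18 reaches 0.89.

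Mixed Het replicate 3 had the lowest Krt19, Cftr, Spp1, Muc1 and Onecut1 of the group (2.59, 0.0717, 66.9, 2.37 and 0.0677 TPM), and replicate 2 the highest of all 5 (14.8, 0.982, 415, 7.77 and 0.963 TPM). The same 2 libraries had Krt18 at 353 and 403 TPM and Krt7 at 102 and 97.9 TPM. Krt18 followed the duct genes there over a narrower range, with r of 0.92 with Spp1, 0.81 with Cftr, 0.73 with Muc1, 0.70 with Onecut1 and 0.63 with Krt19 over the 6 Mixed Het mice, and its 403 TPM was the highest of the group. In C57 Het, replicate 3 was highest in Krt19, Cftr, Spp1 and Muc1, at 6.65, 0.530, 181 and 4.98 TPM.

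**Figure D5:**
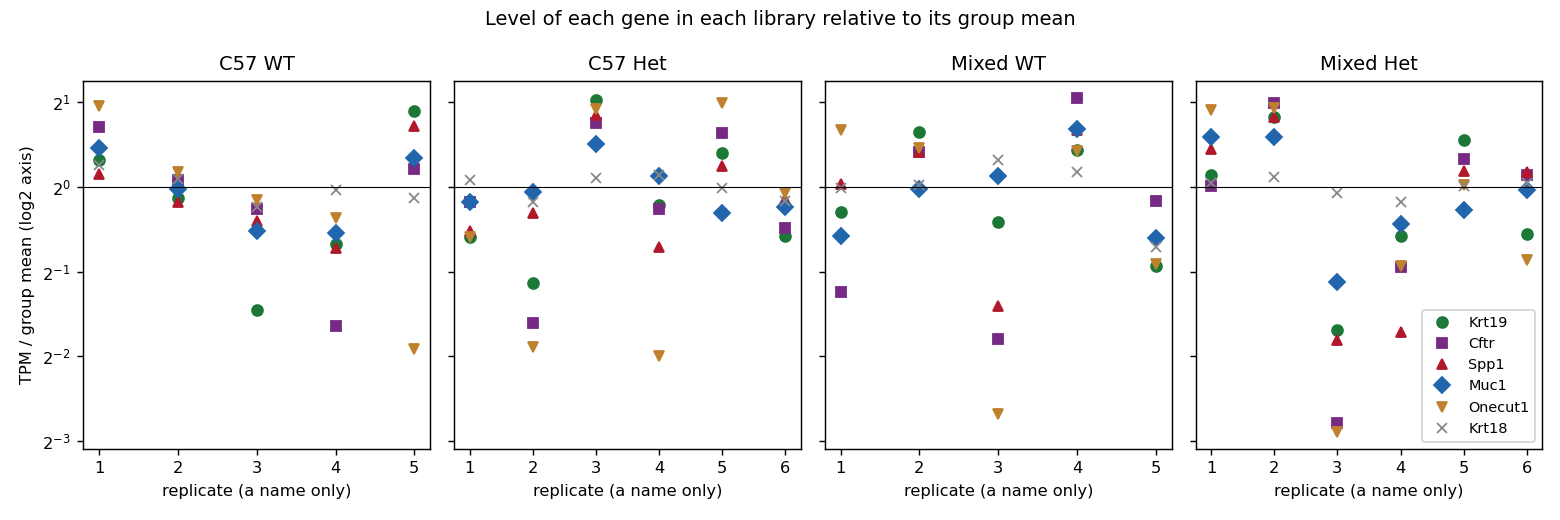
Level of Krt19, Cftr, Spp1, Muc1, Onecut1 and, for comparison, Krt18 in each library, divided by the mean of its group (log2 axis), for the 4 groups; replicate numbers only name a library. In Mixed Het replicate 3 the 5 duct genes lie together at the bottom, and Krt18 varies over a narrower range, at 353 TPM against a group mean of 370.4 TPM.

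Sox9, the transcription factor that marks duct and progenitor cells, was compared with each member in the same way. It correlated with Onecut1 at r = 0.81 (rho = 0.72, permutation adjusted p = 0.0336) and with Spp1 at r = 0.76 (rho = 0.79, adjusted p = 0.0336), adjusted over 49 relations chosen after the values were seen. Without the 2 libraries farthest from the median these were 0.73 and 0.72. With Krt19, Cftr and Muc1, r was 0.67, 0.68 and 0.67 and missed the threshold (permutation adjusted p = 0.0554, 0.0655 and 0.0806), while the rho of 0.70 and 0.72 for Krt19 and Cftr passed (0.0245 and 0.0137). With Krt7, Krt8 and Krt18, r was -0.15, -0.08 and 0.09 (rho -0.17, 0.05 and 0.28, permutation adjusted p at least 0.856 for r and 0.559 for rho). By limma, Sox9 rose 0.59 in C57 (SE 0.20, adjusted p = 0.0263) and 1.08 in Mixed (SE 0.20, adjusted p = 0.000227), from 1.05 to 2.08 TPM and from 1.76 to 5.12 TPM.

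Markers of other cell types moved between the genotypes, and their part in the members' differences was not tested. With the macrophage score, or the mesothelial score, as a covariate, 0 members were called in Mixed, and with the macrophage score Krt8 differed by -1.03 (limma adjusted p = 0.0749). Of all 16749 genes, those fits called 3568 and 947 in Mixed, beside 7393 without a covariate. All 6 tested macrophage markers rose in Mixed, beside 30.7% of all genes, so that score carries part of the genotype difference there. The summed level of 14 acinar markers ran from 267 to 451 TPM in C57 WT, from 325 to 1820 in C57 Het, from 214 to 957 in Mixed WT and from 733 to 1370.1 in Mixed Het. Of the 12 tested, 11 rose in C57 and 5 in Mixed and 0 fell, where 26.4% and 30.7% of all genes rose. Their median difference was 1.20 in C57 and 0.93 in Mixed, beside 0.08 and 0.10 over all genes. Mixed Het replicate 3, the lowest library for the duct genes, had an acinar sum of 1157 TPM, and replicate 2 had 1370.1 TPM. C57 Het replicate 3, the highest of its group in 4 duct genes, had the lowest acinar sum of that group, 325 TPM. The acinar score correlated with Krt19 at r = -0.07 (rho = 0.19) and with Spp1 at r = -0.14 (rho = -0.03) (permutation adjusted p of at least 0.85 for r and 0.68 for rho). These correlations and single libraries describe variation within groups and not the difference between genotypes.

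Mesenchymal markers were higher in Mixed Het, together with the duct genes. Their sum of 9 genes ran from 138 to 210 TPM in Mixed WT, from 132 to 561 in Mixed Het, from 142 to 291 in C57 WT and from 123 to 165 in C57 Het. Of the 8 tested genes, 5 rose in Mixed, while in C57 0 rose and 1 fell. Over all genes 30.7% rose in Mixed, and in C57 26.4% rose and 11.6% fell. The score correlated with Krt19 at r = 0.60 (rho = 0.47, permutation adjusted p = 0.109; r = 0.39 without Mixed Het replicates 3 and 5). Mesothelial cells, which also make keratins, were scored by 8 markers, of which only Msln passed the filter, and the other 7 had group means of at most 1.08 TPM. In Mixed, Upk3b was at 0.712 TPM in WT and 1.08 in Het (range 0 to 5.21 in Het), Lrrn4 at 0.307 and 0.415, Rspo1 at 0.251 and 0.410, and Upk1b at 0.179 and 0.337, while Wt1, Bnc1 and Muc16 were at most 0.0658 TPM in any group. These were not tested. Msln fell from 170.4 to 31.8 TPM in C57 and from 120 to 13.2 TPM in Mixed, so a covariate built on it carries much of the genotype difference. The score called mesothelial here is thus the level of Msln, and whether it follows mesothelial cells was not tested.

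Other duct genes were read from a list of 23, of which 17 were tested. Their levels differed widely, with group means of 40.3 to 95.5 TPM for Tspan8 and 1.47 to 3.35 TPM for Slc4a4. Which cells of these islets made them was not tested. In C57, 7 rose and 0 fell, and in Mixed 10 rose and 1 fell. Over all genes 26.4% rose and 11.6% fell in C57, and 30.7% rose and 13.5% fell in Mixed. Their median difference was 0.24 in C57 and 0.52 in Mixed, beside 0.08 and 0.10 over all genes. Ehf, an epithelial ETS factor, changed most, by 1.31 in C57 (limma adjusted p = 3.13e-06) and 1.78 in Mixed (adjusted p = 2.6e-08). Tspan8, a membrane tetraspanin, rose by 0.68 and 1.27, and the bicarbonate cotransporter Slc4a4 by 0.78 and 0.52. Tff2, a secreted trefoil peptide, rose by 0.77 and 0.97. Cldn4, a tight junction claudin, was the 1 gene of the list with an interaction, at 1.02 (adjusted p = 0.0108), with -0.32 in C57 (adjusted p = 0.121) and a rise of 0.70 in Mixed.

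Desmosomes and plakins tie keratin filaments to the cell surface. Of 10 such genes 9 were tested, and 6 rose and 0 fell in C57 while all 9 tested rose in Mixed. Over all genes 26.4% rose in C57 and 30.7% in Mixed. Dsc2, a desmosomal cadherin, rose by 1.07 in C57 and 0.80 in Mixed, and its partner cadherin Dsg2 by 0.71 and 0.52. Desmoplakin (Dsp), which binds keratin directly, rose by 0.63 (limma adjusted p = 0.00373) and 0.48 (adjusted p = 0.0183). Periplakin (Ppl) rose by 0.55 and 0.42, and envoplakin (Evpl) by 0.50 in Mixed, with 0.32 in C57 (adjusted p = 0.143). The median difference of the list was 0.46 in C57 and 0.42 in Mixed, beside 0.08 and 0.10 over all genes. Jup, or plakoglobin, had an interaction of 0.55 (adjusted p = 0.0262), with -0.18 in C57 (adjusted p = 0.169) and an increase of 0.37 in Mixed.

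The genes most like each member, by r of deviations from the group means over 22 mice among 13330 other named genes, give a further description. They were Fam118a (0.93) and Lmna (0.93), the gene of nuclear lamins A and C, for Krt8, and Krt8 itself (0.89) and Fosl2 (0.87), an AP-1 subunit, for Krt18. For Krt19 they were Mgst1 (0.94) and Ppp1r1b (0.92), for Spp1 Scara3 (0.91) and Tnfrsf19 (0.90), and for Muc1 Clcf1 (0.92) and Selenbp1 (0.83). For Cftr they were Slc22a18 (0.87) and Fgfr3 (0.85), and for Onecut1 Fgfr3 (0.89) and the glucose cotransporter Slc5a1 (0.88). For Krt7 the likeness was lower, with Polr1h at 0.80 and Prr29 at 0.69. The libraries share any difference in purity or depth, so likeness of this kind is a description of these 22 samples.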

How the data were processed

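The authors deposited 1 table of TPM for 57010 Ensembl IDs in 22 libraries, and each column summed to 1000000. Per the submitters' processing notes, STAR 2.7.10b and MultiQC 1.7 were used with the build mm39. The counting tool and annotation are not given in the sources used here. Columns were matched to samples by library name. Where a symbol occurred more than once (147 symbols), the row with the highest mean was kept. Values were analysed as log2(TPM + 1). limma 3.58.1 in R 4.3.3 (lmFit, eBayes with trend) fitted the 4 group means over all 22 samples to the 16749 genes that reached 1 TPM in 5 or more samples. Benjamini-Hochberg adjustment ran over all of them with a threshold of 0.05, and adjusted p-values of differences are from this model, except for Cftr and Onecut1 and where a sentence names another fit. Ratios were compared by exact permutation, and correlations by 100000 permutations within groups.

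The members and gene lists were chosen with earlier results of these data known. Named were all members, Mafa, the other keratins past the filter, Sox9, up to 4 genes per list (other duct genes, keratin anchors) and Het against WT contrast with the largest change among those called, and the 2 genes most like each member; 1 further gene of the rule is not reported here. Cldn4, Jup and the cell type markers with values were chosen after their values were seen. Alternatives were a pseudocount of 0.1, no filter, 3 other scalings, fits on the contrast alone, 3 marker scores as covariates, a pseudocount of 1 in the ratios, no trend, sample weights and leaving out each library. Cftr and Onecut1 were fitted without the filter, over 37343 genes, a choice made after their values were seen. Replicate numbers follow accession order and only name a mouse. RefSeq windows are of GRCm38.p6 and were not joined to coordinates of the table.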

Additional observations from a re-analysis of the deposited data

Results flagged for a closer look

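The genotype difference of Krt7 differed between backgrounds by the test of the interaction itself, at 0.34 (SE 0.10, limma adjusted p = 0.0483), with -0.09 in C57 and 0.26 in Mixed. The call is near the threshold. It was lost in 16 of the 22 fits that left out 1 library, in which the interaction ran from 0.31 to 0.41, and the 6 that kept it left out C57 WT replicate 2 or 5, C57 Het replicate 2, Mixed WT replicate 3 or Mixed Het replicate 4 or 6. Among the 48 sets of values of 1 gene or ratio in 1 group, 0 held a sample far from the others by Dixon's criterion.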

How the results depend on the processing

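No paired analysis was possible because replicate numbers follow accession order and pair no mice. Depth limits cannot be given, since TPM keeps no counts. The cause of each change below was not tested. In C57, members called higher numbered 0 with the mesothelial covariate and 2 with sample weights, and members called lower 2 with quantile normalization and 2 with the total without the most abundant genes. Of all 16749 genes, those fits called 917 and 5089 higher, and 2867 and 3176 lower. The main fit called 4422 higher and 1939 lower. In Mixed, members called higher numbered 2 without the filter, with median-of-ratios scaling and with quantile normalization, 1 with the total without abundant genes and 0 with the mesothelial or macrophage covariate, which also left 0 lower. In that order, those fits called 5576 (of 37343), 3582, 4227, 3654, 790 and 2836 genes higher, beside 5137 in the main fit. The mesothelial and macrophage covariates left 157 and 732 genes lower, beside 2256. For the interaction, 0 members were called higher without the filter, with median-of-ratios scaling, with the acinar or macrophage covariate and without trend. In that order, those fits called 457 (of 37343), 703, 674, 1 and 740 genes higher, beside 774 in the main fit. Between WT backgrounds, members called higher numbered 0 in the fit on WT mice alone and with the macrophage covariate and 2 with sample weights, and members called lower 0 in the fit on WT mice alone. Of all genes, those fits called 442, 561 and 1258 higher, beside 1055 in the main fit. The fit on WT mice alone called 389 lower, beside 836. Between Het backgrounds, members called higher numbered 1 without the filter, 0 with the mesothelial or macrophage covariate and 4 with sample weights. In that order, those fits called 2517 (of 37343), 782, 201 and 3499 genes higher, beside 2234 in the main fit.

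With 1 library left out, members called higher ranged from 2 to 4 in Mixed, 0 to 1 for the interaction, 0 to 2 between WT and 1 to 3 between Het backgrounds, and members called lower from 1 to 2 in Mixed and 0 to 1 for the interaction. Differences that changed sign ranged from -0.25 to 0.0048 for Krt18 in Mixed, from -0.021 to 0.24 for its interaction and from -0.0031 to 0.055 for Krt7 between Het backgrounds. The log2 ratio of Krt8 to Krt18 in C57 ranged from -0.10 to 0.090, that of Krt19 to Krt18 from 0.71 to 1.27 in C57 and 1.10 to 1.56 in Mixed, and that of Krt7 to Krt19 in Mixed from -1.26 to -0.74. The last 3 passed exact permutation tests, adjusted over 8 ratios, without C57 WT replicate 5 (Krt19 to Krt18, C57) or Mixed Het replicate 3 (both Mixed ratios). With all libraries they did not pass. Krt19 to Krt18 then differed by 0.96 in C57 (adjusted exact permutation p = 0.147) and 1.28 in Mixed (0.0577). Krt7 to Krt19 differed by -0.82 in C57 (adjusted exact permutation p = 0.231) and -0.94 in Mixed (0.156).

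Signs also changed with the mesothelial covariate for Krt7 (0.077) and Krt19 (-0.15) in C57 and for the interaction of Spp1 (-0.016). With the macrophage covariate they changed for the interactions of Krt19 (-0.29) and Cftr (-0.16) and for Cftr between Het backgrounds (-0.020). Between Het backgrounds Krt7 changed sign with median-of-ratios scaling (-0.023), quantile normalization (-0.036) and the total without abundant genes (-0.034), and Krt8 with quantile normalization (-0.035). Spp1 between Het backgrounds passed without Mixed Het replicate 3 or 4 (1.29 and 1.27).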

Other observations

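Of 50 other keratin genes in the table, 9 passed the filter and 12 were listed at 0 in every sample. In Mixed 5 of the 9 rose and 2 fell, and in C57 3 rose and 1 fell; over all genes 30.7% rose and 13.5% fell in Mixed, and 26.4% and 11.6% in C57. Krt17, a keratin of stressed and basal epithelia, rose in Mixed from 1.73 ± 1.33 to 6.19 ± 3.34 TPM (log2 difference 1.39, limma adjusted p = 0.00227), and Krt23 from 1.13 to 3.53 TPM (1.06, adjusted p = 0.0065). In C57 they differed by 0.40 and 0.39 (adjusted p = 0.373 and 0.31). Krt222, Krt90 and Krt1 rose by 0.58, 0.69 and 0.45 in C57 and by 0.58, 0.70 and 0.45 in Mixed. Krt10 differed by -0.08 and 0.13 and did not pass.

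Krt78, the gene next to Krt8 in RefSeq's order, fell in Mixed from 7.53 ± 10.9 to 0.133 ± 0.0932 TPM (log2 difference -2.14, adjusted p = 0.00189), and its highest value, 26.7 TPM, was in Mixed WT replicate 4, where Krt8 was at 1097 TPM. Over the 22 mice it correlated with Krt8 at r = 0.73 (rho = 0.58, permutation adjusted p = 0.21; 0.53 without Mixed WT replicates 4 and 5). Whether strand was used in counting is not given in the sources used here, so reads that overlap both neighbours cannot be told apart. Krt88 fell by 0.76 in Mixed (limma adjusted p = 0.0273). Krt80 fell by 1.04 in C57 (adjusted p = 3.17e-05) and differed by -0.23 in Mixed, with an interaction of 0.80 (adjusted p = 0.0282).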
